A study of Mus musculus with 9 samples.

Results

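Genes of the photoreceptor outer segment and of the matrix around it, 10 in number, were followed across 3 layers of the mouse eye. They are Prph2, Rom1, Prom1, Cdhr1, Fscn2, Rp1, Rp1l1, Tulp1, Impg1 and Impg2, 10 of the 31709 genes on the array, and they were chosen by name: every probe that is no control and carries one of these symbols was taken, which gave 14 of 39429 probes. Cdhr1 is listed under its older name Pcdh21. Dual-colour Agilent arrays were hybridised with RNA of 3 samples each of choroid (CH), retinal pigment epithelium (RPE) and photoreceptors (PR), 9 arrays in all, from female C57BL/6 mice of 6 months with a range of 2 weeks according to the labels. The study's methods give a lower age and the J substrain. The labels name no transgene and no treatment. Laser dissection of 1 whole eye gave a sample, which is therefore a layer of tissue and not a purified cell type, and the PR were taken from thicker cryosections than the other layers. Tissue RNA carried the dye Cy5 and a common reference of choroid and RPE RNA carried Cy3 on every array, without a dye swap. The values below are log2 ratios of Cy5 to Cy3 after background correction and loess, and a positive value means that the tissue gave more signal than the reference.

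The outer segment is a modified cilium filled with a stack of membrane discs, where light is captured. Discs form continuously at its base and are shed at its tip, where the RPE engulfs them. The space between outer segments and RPE is filled by the interphotoreceptor matrix, a gel of hyaluronan and the proteoglycans that bind it.

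What each value refers to is the 60 bases of a probe, and 4 probe ends are shown. Whether these letters affect the values was not tested. Only the last 30 bases are given, 5′ to 3′. Capitals mark AATAAA, the usual polyadenylation signal, or the CT repeat of the Impg1 probe.
Rom1: agcatccagattctacAATAAAgtttgtgg
Prom1: gagatttaaAATAAAgcatgaatgaacaga
Impg2: atgtatccattagtAATAAAcatgtctttc
Impg1: tatagtctcCTCTCTCTCTCTCTCTCTCTc
AATAAA, searched in the probes' own strand, was present in 3 of the 14 probes and in 12.6% of the 39429 probes on the array. The 60 bases of the Fscn2 probe span 4166 bases of the genome and so cross at least 1 splice junction. Probe positions are given on mm9 as in the files, and no annotation of that build was used.

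The 9 arrays had median Cy5 signals from 617 to 1534, and from 63.1% to 91.8% of the spots that are no controls were well above background, with RPE replicate 2 highest. Marker lists were checked against the labels. The counts are of genes called by the rule given below, a fold change above 2.5 with an adjusted p below 0.01. Against the RPE, 15 of 15 rod markers and 11 of 12 cone markers were called higher in the PR, where 5.22% of all genes were. Called lower in the PR were 9 of 11 RPE markers and 17 of 18 markers of choroidal cells, where 10.9% of all genes were. Of 11 Müller glia markers 5 were called lower in the PR, and of 15 inner retina markers 3 were called higher and 3 lower. All 15 rod markers were also well above background on every CH and RPE array. In whole tissue layers, fewer cells of a type and less RNA per cell cannot be told apart.

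All 10 genes had their highest values in the PR, and Impg1 alone stayed under the fold change set for a call. A gene was called when its reported probe passed a fold change of 2.5 together with a Benjamini-Hochberg adjusted p below 0.01 in the limma fit. By this rule the PR exceeded the RPE for 9 of 10 genes, against 5.22% of all genes, and the CH for 9 of 10, against 6.08%. None of the 10 was called lower in the PR than in the RPE, where 10.9% of all genes were. The median log2 difference of the 10 genes was 3.33 for PR minus RPE and 3.91 for PR minus CH, where the medians of all genes were 0.01 and 0.05. With the 2 genes that were saturated in the PR set at their lower bounds, the medians were 2.68 and 3.47. On all 14 probes each PR array lay above each RPE and CH array, and 25.1% of all genes have this separation.

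**Figure D1:**
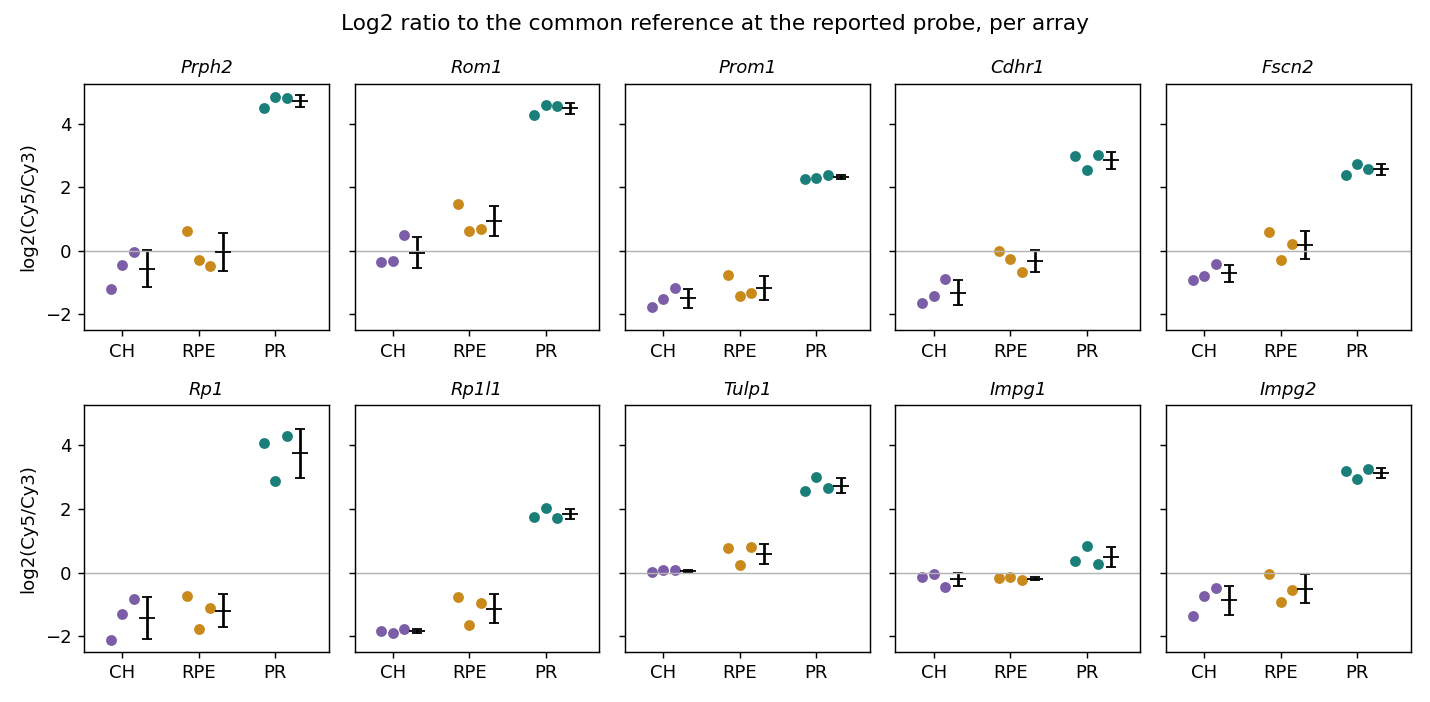
Log2 ratio of Cy5 to Cy3 at the reported probe of each gene (y axis) on the 3 arrays of CH, RPE and PR (x axis). Points are arrays in replicate order and the black bar is the mean ± SD (n = 3). The PR points lie above all others in every panel, by the least for Impg1.

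Prph2 and Rom1 encode the tetraspanins peripherin-2 and its partner, which shape the rim of the disc. The reported Prph2 probe (chromosome 17, 47061811 to 47061870) had log2 ratios of -1.20, -0.45 and -0.04 on the CH arrays, 0.64, -0.30 and -0.48 on the RPE arrays and 4.49, 4.84 and 4.80 on the PR arrays. The PR arrays stood far above the others, while the CH and RPE arrays overlapped. Cy5 was saturated on all 3 PR arrays, so that only bounds are given, at least 2.20-fold over the RPE and at least 2.46-fold over the CH. The limma fit of the log ratio had adjusted p-values of 1.41e-06 and 5.39e-07, which belong to the ratio and not to the bounds. The other Prph2 probe was saturated there too and gave at least 2.82-fold and at least 3.30-fold. Such bounds were taken from Cy5 signals made comparable between arrays by Aquantile after loess, and dye bias can enter them. They depend on that normalization, since quantile-normalized Cy5 gave 1.77-fold over the RPE for Prph2 (limma adjusted p = 0.0106) and 2.00-fold over the CH (0.00324).

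Rom1 (chromosome 19, 9001888 to 9001947) had ratios of -0.35, -0.33 and 0.51 in the CH, 1.47, 0.63 and 0.67 in the RPE and 4.28, 4.59 and 4.56 in the PR. The 3 tissues did not overlap. Its only probe was saturated on every PR array and gave at least 1.52-fold over the RPE and at least 1.73-fold over the CH, while the limma fit of its log ratio had adjusted p-values of 2.83e-06 and 4.15e-07. With quantile-normalized Cy5 the values were lower, a log2 difference of 0.33 to the RPE (limma adjusted p = 0.151) and 0.59 to the CH (0.0156).

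Prom1 and Cdhr1 act where new discs form, Prom1 as a pentaspan protein of membrane protrusions and Cdhr1 as a photoreceptor cadherin. Prom1 (chromosome 5, 44384861 to 44384920) had ratios of -1.78, -1.52 and -1.18 in the CH, -0.75, -1.43 and -1.33 in the RPE and 2.27, 2.29 and 2.40 in the PR. The PR arrays lay within a narrow band and no PR spot was saturated. The log2 difference was 3.49 ± 0.19 (SE) to the RPE, or 11.2-fold (adjusted p = 3.02e-07), and 3.81 ± 0.19 to the CH. A second Prom1 probe, which lies upstream in the gene (44397410 to 44397469), gave 3.12 ± 0.17 and 3.71 ± 0.17.

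Cdhr1 (chromosome 14, 37891387 to 37891446) had ratios of -1.65, -1.43 and -0.88 in the CH, -0.02, -0.26 and -0.68 in the RPE and 2.98, 2.55 and 3.01 in the PR. Every RPE array was above every CH array and every PR array was above both. Its difference was 3.17 ± 0.23 to the RPE (8.97-fold, adjusted p = 1.90e-06) and 4.16 ± 0.23 to the CH (17.9-fold, 2.23e-07).

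Fscn2, the retinal fascin that bundles actin, was measured at chromosome 11, 120223830 to 120227995. Its ratios were -0.91, -0.80 and -0.40 in the CH, 0.59, -0.28 and 0.21 in the RPE and 2.40, 2.73 and 2.57 in the PR. The tissues were fully separated in the order CH, RPE, PR. Fscn2 in the PR was 5.24-fold the RPE level (log2 2.39 ± 0.21, adjusted p = 8.31e-06) and 9.63-fold the CH level (3.27 ± 0.21, 7.25e-07).

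Rp1 and Rp1l1 encode doublecortin-domain proteins of the microtubules of the axoneme, along which the discs are stacked. Rp1 (chromosome 1, 4334346 to 4334405) had ratios of -2.14, -1.32 and -0.85 in the CH, -0.75, -1.76 and -1.10 in the RPE and 4.07, 2.87 and 4.30 in the PR. The second PR array lay well below the other PR arrays, and its SD in the PR was 0.77 (n = 3). The log2 difference was 4.95 ± 0.43 to the RPE (adjusted p = 6.66e-06) and 5.18 ± 0.43 to the CH, with 1 PR array saturated. The other Rp1 probe, with no saturated spot, gave 4.62 ± 0.30 to the RPE, or 24.5-fold, and 32.1-fold to the CH, and its PR arrays at 4.11, 3.67 and 4.02 lay closer together.

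Rp1l1 (chromosome 14, 64651324 to 64651383) had ratios of -1.84, -1.91 and -1.77 in the CH, -0.77, -1.65 and -0.97 in the RPE and 1.76, 2.03 and 1.73 in the PR. The CH arrays agreed within 0.07 (SD, n = 3), and the tissues did not overlap. Rp1l1 in the PR was 7.85-fold the RPE level (2.97 ± 0.20, adjusted p = 1.14e-06) and 12.8-fold the CH level (3.68 ± 0.20, 2.01e-07). Its other probe was not well above background on any CH array, and was so on 1 of the 3 RPE arrays. There the PR level was at least 4.86-fold that of the CH. The limma fit of its log ratio gave 2.34 ± 0.16 for PR minus CH (adjusted p = 9.71e-07) and 2.21 ± 0.16 for PR minus RPE.

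Tulp1, a tubby-like protein needed for transport of proteins to the outer segment, was measured at chromosome 17, 28490679 to 28490738. Its ratios were 0.02, 0.07 and 0.07 in the CH, 0.76, 0.22 and 0.79 in the RPE and 2.57, 2.99 and 2.65 in the PR. The 3 tissues were separated. The PR level was 4.42-fold that of the RPE (adjusted p = 2.71e-06), and the difference to the CH was 2.68 ± 0.16 (6.42-fold, 4.55e-07).

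Impg1 and Impg2 encode the 2 proteoglycans of the interphotoreceptor matrix, and they differed in their values. Impg2 (chromosome 16, 56273805 to 56273864) had ratios of -1.38, -0.75 and -0.50 in the CH, -0.03, -0.93 and -0.56 in the RPE and 3.19, 2.94 and 3.25 in the PR. The CH and RPE arrays overlapped and the PR arrays lay apart. Its PR level was 12.4-fold that of the RPE (3.63 ± 0.26, adjusted p = 1.65e-06) and 16.0-fold that of the CH (4.00 ± 0.26, 6.63e-07).

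Impg1 (chromosome 9, 80161162 to 80161221) had ratios of -0.12, -0.06 and -0.45 in the CH, -0.18, -0.15 and -0.24 in the RPE and 0.36, 0.83 and 0.27 in the PR. The PR arrays were above all others by a small margin. The PR level of Impg1 was 1.60-fold that of the RPE (0.68 ± 0.16, adjusted p = 0.00506) and 1.62-fold that of the CH (0.70 ± 0.16, 0.00387), which passed the p-value but not the fold change of the call. Its 95% confidence intervals, 0.32 to 1.03 and 0.34 to 1.05, ended below the log2 threshold of 1.32. Impg1 has a single probe, and that probe ends in the CT repeat shown above. After seeing the data, the 8 probes on the array with 8 CT units in a row were counted, that of Impg1 among them. Between PR and RPE 0 of these 8 were called higher in the PR and 0 in the RPE, against 5.22% and 10.2% of all probes. So few probes cannot tell a count of 0 from these shares. The median absolute log2 difference of the 8 was 0.23, and that of all probes 0.37. In Cy3 their median log2 signal was 12.2, and that of all probes 9.70. The part of the repeat in the Impg1 value was not tested.

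**Figure D2:**
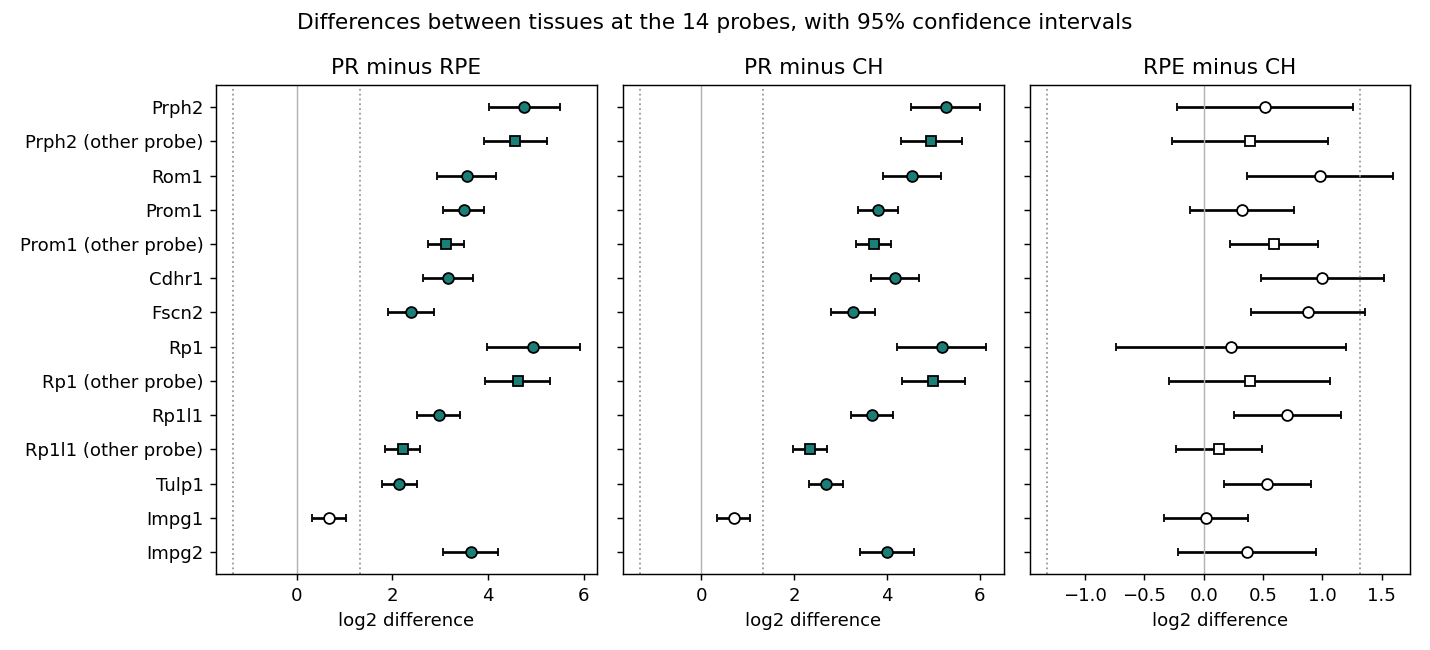
Log2 difference between tissues (x axis) at the 14 probes (y axis), for PR minus RPE, PR minus CH and RPE minus CH. Bars are 95% confidence intervals of the limma fit, circles are reported probes, squares other probes, filled symbols are called and dotted lines mark a fold change of 2.5. The fitted differences of Prph2 and Rom1 in the left and middle panels come from saturated PR spots. Impg1 is the single probe open in those panels, and every probe is open in the RPE minus CH panel.

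A log ratio holds both dyes, and they were also fitted apart, after loess and Aquantile, an alternative chosen after seeing the data. In Cy5, which carries the tissue RNA, the PR arrays lay above all others for all 10 genes as scanned, and 7.59% of all genes have this separation. In Cy5 alone 7 of 10 genes were called in PR over RPE, against 6.20% of all genes. The 3 not called were Prph2 (1.14 ± 0.26, limma adjusted p = 0.00730), Rom1 (0.60 ± 0.22, 0.0636) and Impg1 (0.81 ± 0.17, 0.00419). The first 2 of these are the saturated genes.

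Cy3, which carries the same reference RNA on every array, was lower on the PR arrays at several of the probes. At the reported Prph2 probe the Cy3 signal as scanned was 160362, 125434 and 99560 on the CH arrays, 84235, 128639 and 133219 on the RPE arrays and 14639, 13009 and 6523 on the PR arrays. At Rom1 it ranged from 64131 to 139077 over the CH and RPE arrays and was 16783, 15399 and 7703 on the PR arrays. At Rp1 it ranged from 53137 to 65332 over the CH and RPE arrays and was 15775, 25406 and 8718 on the PR arrays. The PR arrays were below all others in Cy3 for 6 of the 10 genes, namely Prph2, Rom1, Rp1, Prom1, Cdhr1 and Impg2, and for 1.72% of all genes.

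In the fit of Cy3 alone, PR minus RPE was -3.62 ± 0.27 for Prph2 (limma adjusted p = 0.00333) and -2.96 ± 0.27 for Rom1 (0.00482). These 2 of the 10 genes were called, against 0.0252% of all genes. The change was -2.02 for Rp1, -1.25 for Cdhr1, -0.96 for Prom1 and -0.48 for Impg2, none of which was called. It was 0.22 for Rp1l1, 0.40 for Fscn2, 0.27 for Tulp1 and 0.13 for Impg1. For Prph2 and Rom1 more of the log ratio difference therefore lay in Cy3 than in Cy5, where the signal was saturated. For Rp1, Cdhr1, Prom1 and Impg2 the Cy5 differences of PR minus RPE were 2.93, 1.91, 2.53 and 3.15, below those of the log ratio. The other Rp1 probe had a Cy5 difference of 3.46. The fold changes given above for these genes are of the log ratio and so include the Cy3 difference. The 2 Prom1 probes differed in this respect, since the upstream probe had a Cy3 difference of -0.01 and a Cy5 difference of 3.11.

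The 8 genes called lower in Cy3 on the PR arrays were Prph2, Rom1, the rod markers Sag, Nrl, Cnga1 and Pde6a, and Hmgn1 and Pcmtd2. In the opposite direction 21 genes (0.0662%) were called, 4 of them among the 11 RPE markers. The cause of these differences in the reference channel was not tested.

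**Figure D3:**
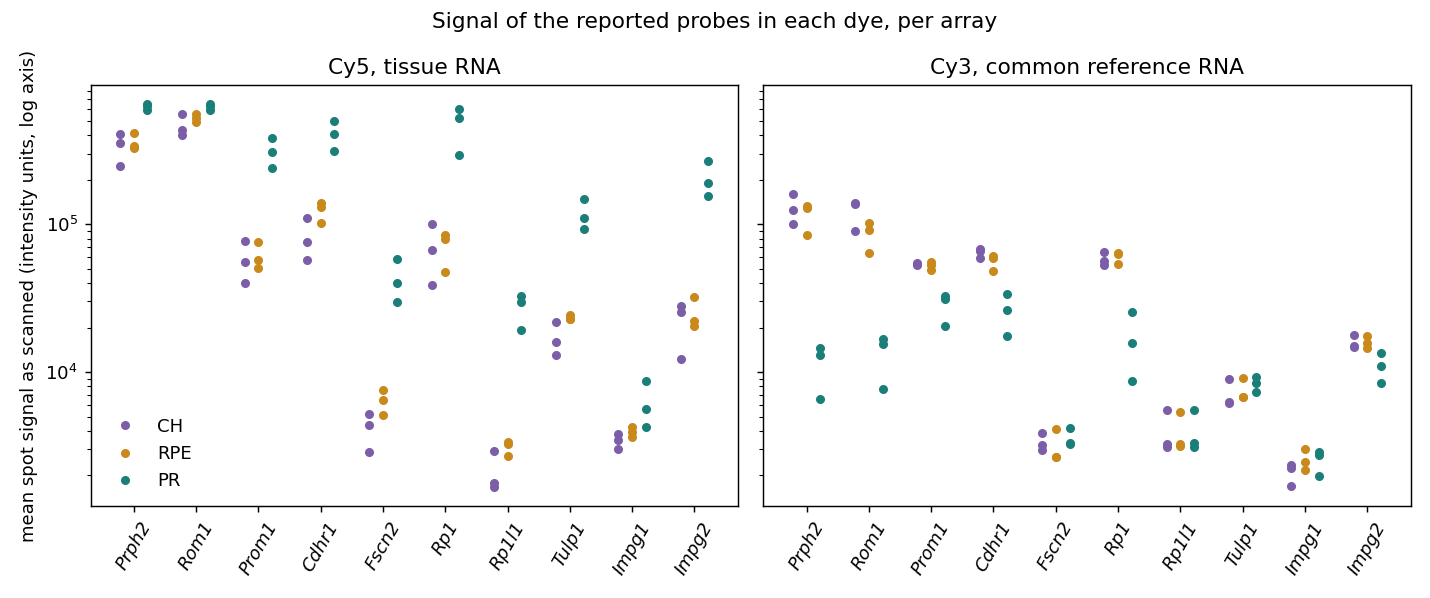
Mean spot signal as scanned (y axis, log scale) of the reported probe of each gene (x axis) in Cy5 and in Cy3, 1 point per array, coloured by tissue. In Cy3 the PR points fall below the others for Prph2, Rom1, Prom1, Cdhr1, Rp1 and Impg2 and lie among them for Fscn2, Rp1l1, Tulp1 and Impg1.

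Between RPE and CH the differences were small. None of the 10 genes was called in either direction, where 0.18% of all genes were higher in the RPE and 1.75% higher in the CH. At an adjusted p below 0.05, without the fold change, 5 of the 10 were higher in the RPE, and at an unadjusted p below 0.05 it was also 5. These were Cdhr1 (1.00 ± 0.23, limma adjusted p = 0.0126), Fscn2 (0.88 ± 0.21, 0.0163), Rom1 (0.98 ± 0.27, 0.0294), Rp1l1 (0.71 ± 0.20, 0.0314) and Tulp1 (0.54 ± 0.16, 0.0428). The share of all genes that pass these p thresholds without the fold change was not counted, so the 5 of 10 cannot be set against it. The same 5 genes had every RPE array above every CH array, and 19.9% of all genes have that separation. The other 5 gave 0.52 ± 0.33 for Prph2, 0.37 ± 0.26 for Impg2, 0.32 ± 0.19 for Prom1, 0.23 ± 0.43 for Rp1 and 0.02 ± 0.16 for Impg1, with CH and RPE arrays that overlapped. The choice of probe mattered here, since the other Prom1 probe gave 0.59 ± 0.17 (limma adjusted p = 0.0297) and the other Rp1l1 probe 0.13 ± 0.16 (0.635). The count of 5 rested on single arrays. Leaving out RPE replicate 1 or CH replicate 2 gave 0, leaving out CH replicate 1 gave 1 (Cdhr1), RPE replicate 3 gave 2 and CH replicate 3 gave 3, and the count was 0 with median centring and with Cy5 alone. All 10 means were highest in the PR, then the RPE, then the CH, an order that 27.3% of all genes have. The median difference of the 10 was 0.53, and that of all genes 0.03.

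These small differences varied with the slide. On the slide that held 2 CH and 2 RPE arrays RPE minus CH was above 0 for 10 of 10 genes. On the slide with 1 array of each tissue it was above 0 for 7 of 10, with -0.45 for Rp1, -0.18 for Impg2 and -0.10 for Impg1. On that slide PR minus RPE ran from 0.98 for Impg1 to 4.63 for Rp1 over the 8 genes not saturated on every PR array. PR replicates 1 and 3 were on a slide without CH or RPE arrays, and only PR replicate 2 shared a slide with other tissues. For PR replicates 1 and 3, tissue and slide cannot be told apart, in Cy5 or in Cy3.

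The arrays of a tissue also differed together. CH replicate 1 was the lowest CH array for 8 of the 10 genes and CH replicate 3 the highest for 8. RPE replicate 1 was the highest RPE array for 8 and RPE replicate 2 the lowest for 7. The mean log2 ratio of the 10 genes was -1.13, -0.85 and -0.55 on the CH arrays, 0.10, -0.59 and -0.37 on the RPE arrays and 2.84, 2.87 and 2.95 on the PR arrays.

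The mean of the 15 rod markers was -0.99, -0.52 and -0.21 on the CH arrays, 0.52, -0.45 and -0.02 on the RPE arrays and 3.28, 3.34 and 3.36 on the PR arrays. Their order within CH and within RPE was that of the 10 genes. This order was not particular to photoreceptor genes. Müller glia markers had it too, with means of -0.79, -0.67 and -0.47 in the CH and -0.47, -0.90 and -0.83 in the RPE. So did the further matrix genes counted below. The inner retina, RPE and choroidal cell markers and the paralogs did not have it. The summed Cy5 level of the rod markers, on the log2 scale, was between 20.2 and 20.8 in the CH, 20.7 and 21.1 in the RPE and 21.97 and 22.53 in the PR. RPE minus CH was above 0 for 15 of 15 rod markers, with a median of 0.57 and none called. The part of photoreceptor RNA in the RPE and CH values of the 10 genes was not tested.

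**Figure D4:**
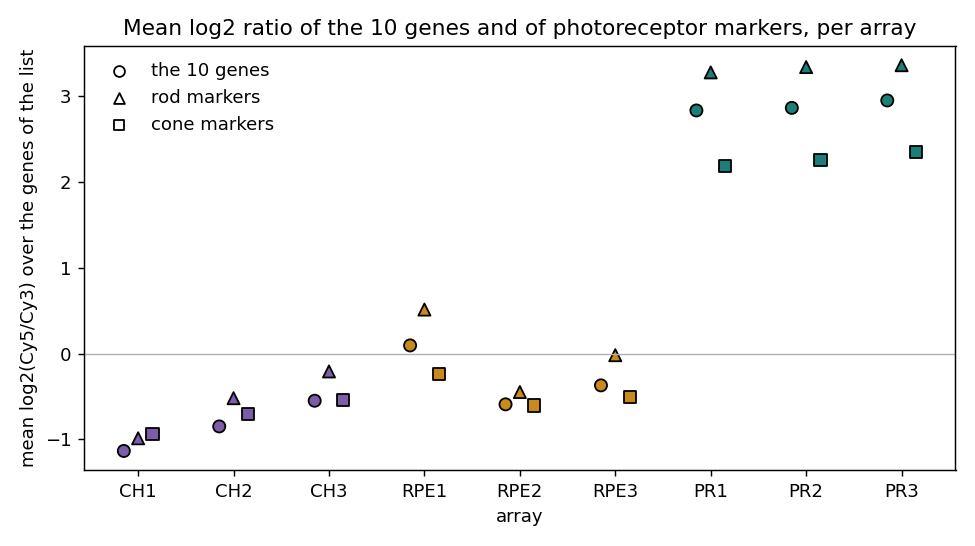
Mean log2 ratio of Cy5 to Cy3 (y axis) over the 10 genes (circles), the 15 rod markers (triangles) and the 12 cone markers (squares) on each array (x axis), coloured by tissue. The 10 genes lie from -1.13 to 0.10 on the CH and RPE arrays and from 2.84 to 2.95 on the PR arrays, and the rod markers follow the same order among the CH and among the RPE arrays.

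Other genes of the same structures were counted from fixed lists. For comparison, 5.22% of all genes were called higher and 10.9% lower in PR against RPE. Of 25 further outer segment and disc genes 20 were called higher and none lower in PR against RPE, with a median log2 difference of 2.48. They included the channel subunit Cnga1 (4.68), the connecting cilium protein Rpgrip1 (3.49) and the phosphodiesterase subunit Pde6a (3.40). Of 20 further matrix genes 4 were called higher in the PR and 6 were called lower, with a median of -0.02. Among them the adhesive glycoprotein Vtn (3.46) and Egflam, or pikachurin (6.07-fold), were higher in the PR. The proteoglycan Bcan (-3.96) and the metalloproteinase inhibitor Timp3, at least 7.78-fold higher in the RPE where it was saturated, were higher in the RPE. Of 17 paralogs of the 10 genes 2 were called higher in the PR, Pcdh15 (3.62) and Tub (3.29). Dcdc2a (-2.89) and Dclk1 (-2.43) were called lower, and the median was -0.09. The share of paralogs called lower was near that of all genes.

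The genes outside the 10 whose pattern over the 9 arrays was closest to the median profile of the 10 were Fhod3, Pdzph1, A930009E08Rik, AI852064 and Svop. Likeness was the root mean square difference on the log2 scale after each profile was centred on its mean, over 31216 genes, and it was between 0.11 and 0.17 for these 5. Fhod3, a formin of the actin cytoskeleton, had log2 differences of 2.95 for PR minus RPE and 3.49 for PR minus CH.

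Promoter sequences from RefSeq (GRCm38.p6) were found for 8 of the 10 genes, 9 promoters in all since Prom1 has 2, and the 250 bases before each start site were searched for 4 motifs. TAATCC, the core of sites of the photoreceptor factor CRX, was searched on both strands and was in 0 of 9, against 6.3% of all 32851 promoters. TGCTGA, part of the site of the rod factor NRL, on both strands, was in 0 of 9, against 16.1%. TAATTA, which reads the same on both strands, was in 1 of 9, that of Impg2, against 4.8%. TATAAA, on the gene's own strand, was in 0 of 9, against 7.6%. An absent match says only that these letters were not in this window.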

How the data were processed

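The authors deposited the output of Agilent Feature Extraction 9.5.3.1 for each array, whose mean signals and median local backgrounds are intensity values as scanned. The deposited series table holds log2 values that correlate with the log2 Cy5 signal between 0.985 and 0.999 per array. Its normalization steps are not given in the sources used here, and it was used only as an alternative, like the deposited processed intensity columns. The submitters' processing notes also name R 2.14.0 and limma.

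Background was corrected with normexp (offset 50), log2(Cy5/Cy3) was normalized within arrays by loess, control spots and 228 to 586 marked outlier spots per array were left out, and spots of a probe were averaged. A mean per tissue was fitted to all 9 arrays with limma 3.58.1 in R 4.3.3, and p-values were adjusted by Benjamini-Hochberg across the 39429 probes. Calls were made at a fold change of 2.5 and an adjusted p of 0.01. The fit was tested on simulated data. Tables and figures used Python 3.11.15, pandas 2.3.3, numpy 2.4.6 and matplotlib 3.10.9.

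All 10 genes were named with all their probes. The reported probe was the brightest in Cy5 that was not saturated on every array of a tissue, or the brightest where all were. Of each other list at most the 4 genes with the largest difference between PR and RPE were named, and the 5 genes most alike in pattern. A gene that this rule chose is not reported here. Genes outside these rules were named after their values were seen in the account of the Cy3 channel. The 10 genes and all lists were chosen with earlier results of these data known.

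Where all arrays of a tissue were saturated, or all were dim, only a bound was given. Slides were read from the files, each with 1 scan. Gene names came from a RefSeq table (GRCm38.p6). The labels do not say whether the eyes of a tissue came from separate mice, so p-values measure the spread between these samples, which may be technical. Precision is limited by the 3 arrays per tissue.

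Alternatives covered background correction, normalization, the dyes apart, the series table, replicate number and slide as blocks, dim, marked and saturated spots, the variance model, several probes per gene, the fold and p thresholds and the omission of single arrays.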

Additional observations from a re-analysis of the deposited data

How the results depend on the processing

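The count of 9 of 10 genes called in PR over RPE was also 9 with each of the 9 arrays left out in turn and under 14 further alternatives, and the counts were the same for PR over CH. Some of the 14 could not lower the count. Aquantile after loess leaves the log ratio as it is, and the looser fold and p thresholds could only raise the count. The count was 7 with Cy5 alone, under either normalization of that dye. With quantile normalization, Prph2 (log2 difference to the RPE 0.82, limma adjusted p = 0.0106) and Rom1 (0.33, 0.151) were among those not called. It was 7 of the 8 genes left without saturated spots, and 6 of the 7 genes with values in the series table. Between RPE and CH the count was 0 under every alternative run. The count of 5 genes with RPE above CH at an adjusted p below 0.05, with no fold limit, was 3 with the processed signals, 2 with only the 6 arrays compared, and 0 with median centring, Cy5 alone and the series table, and between 0 and 5 with single arrays left out. The sign of RPE minus CH turned for Rp1, to -0.056 with median centring and -0.12 without CH replicate 1, and for Impg1, to -0.21 with median centring and -0.10 without CH replicate 3. With single arrays left out it lay between -0.12 and 0.52 for Rp1 and between -0.10 and 0.098 for Impg1. The cause was not tested.

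With replicate number as a block the counts were 9, 9 and 0, so the block changed no call, and the count at an adjusted p below 0.05 for RPE over CH was 4 in place of 5. Arrays with the same number deviated from their tissue means with correlations between -0.08 and 0.29. Of the 9 arrays 5 correlated best with an array of their own number. All arrays of replicate 2 share a slide, so this comparison mixes number with slide and cannot decide whether the numbers pair the samples. The main fit used no pairing.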
